A study of Mus musculus with 19 samples.

Results

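The tripartite motif (TRIM) family was followed in mouse aorta 7 days after elastase infusion. Its members were all genes whose symbol starts with Trim and a digit, read from probe sets that name exactly 1 gene, with the brightest probe set kept where a gene had several. That gave 64 genes out of 30141 measured, and each of the 64 had 1 probe set. TRIM proteins carry a RING domain, B-boxes and a coiled coil, and most of them act as ubiquitin ligases, which attach ubiquitin to other proteins. One branch of the family is induced by interferon and serves in antiviral defence, either by binding viral components or by tuning the sensors of foreign nucleic acid. Another branch, with the muscle RING finger proteins MuRF1, MuRF2 and MuRF3, sits on the sarcomere of striated muscle and marks its proteins for degradation. The arrays were read with the question of how these branches compared after elastase, in male and in female mice.

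Each of the 19 arrays held RNA from the infrarenal aorta of 1 mouse. There were 7 male mice given porcine pancreatic elastase (PPE) and 5 male mice given sham surgery, and 4 female mice given PPE and 3 female mice given sham surgery. All were C57BL/6J mice operated at 10 weeks of age, and no transgene or knockout is named for any group. In PPE mice the segment was filled for 5 min at 120 mmHg with saline holding 2.5 U/mL of type I elastase, which damages the elastic fibres and lets the vessel widen. Sham mice had the same surgery, clamping and pressure with saline alone, so that the comparison is of elastase on top of surgery. The deposited values are log2 intensities, on which a difference of 1 is a 2-fold change. Every difference, and every rise or fall given as a number, is PPE minus sham on that log2 scale, with its standard error after ± unless SD is named. The median over all probe sets was 5.61 to 5.85 on male arrays and 6.17 to 6.31 on female arrays, so levels were compared within a sex, and sex cannot be told apart from whatever else set the male and female arrays apart. Markers of smooth muscle, the main cell of the aortic wall, had list means between 10.79 and 13.62 on every array, far above those medians. In whole tissue, fewer cells of a type and less RNA per cell cannot be told apart.

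After PPE most interferon-induced TRIM genes rose in both sexes. None of the 5 muscle TRIM genes passed the test, and only 1 of them exceeded the array median on every array. With so few genes, 0 calls is not far from the shares over all genes given next. Of the 64 TRIM genes, 12 were called higher and 5 lower in male PPE mice than in male sham mice, at a limma p-value below 0.05 after Benjamini-Hochberg adjustment over all 30141 genes. This is 26.6% of the family, where 19.6% of all genes were called, 9.67% higher and 9.98% lower. In female PPE mice 12 were called higher and 1 lower than in female sham mice, which is 20.3% of the family, where 4.22% of all genes were called, 2.77% higher and 1.45% lower. The same 12 genes were called higher in both sexes, 18.8% of the family, where 2.46% of all genes were. The median difference over the 64 genes stayed small, at 0.04 in males and 0.01 in females on the log2 scale, beside 0.01 and -0.02 over all genes. In all, 47 members were called in neither sex. The female call count rested on few arrays. Of 13 female calls, 8 were left without female sham 1, 6 without female sham 2, 8 without female sham 3, 8 without female PPE 1 and 7 without female PPE 3, while the direction of every gene named here as called stayed the same.

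**Figure D1:**
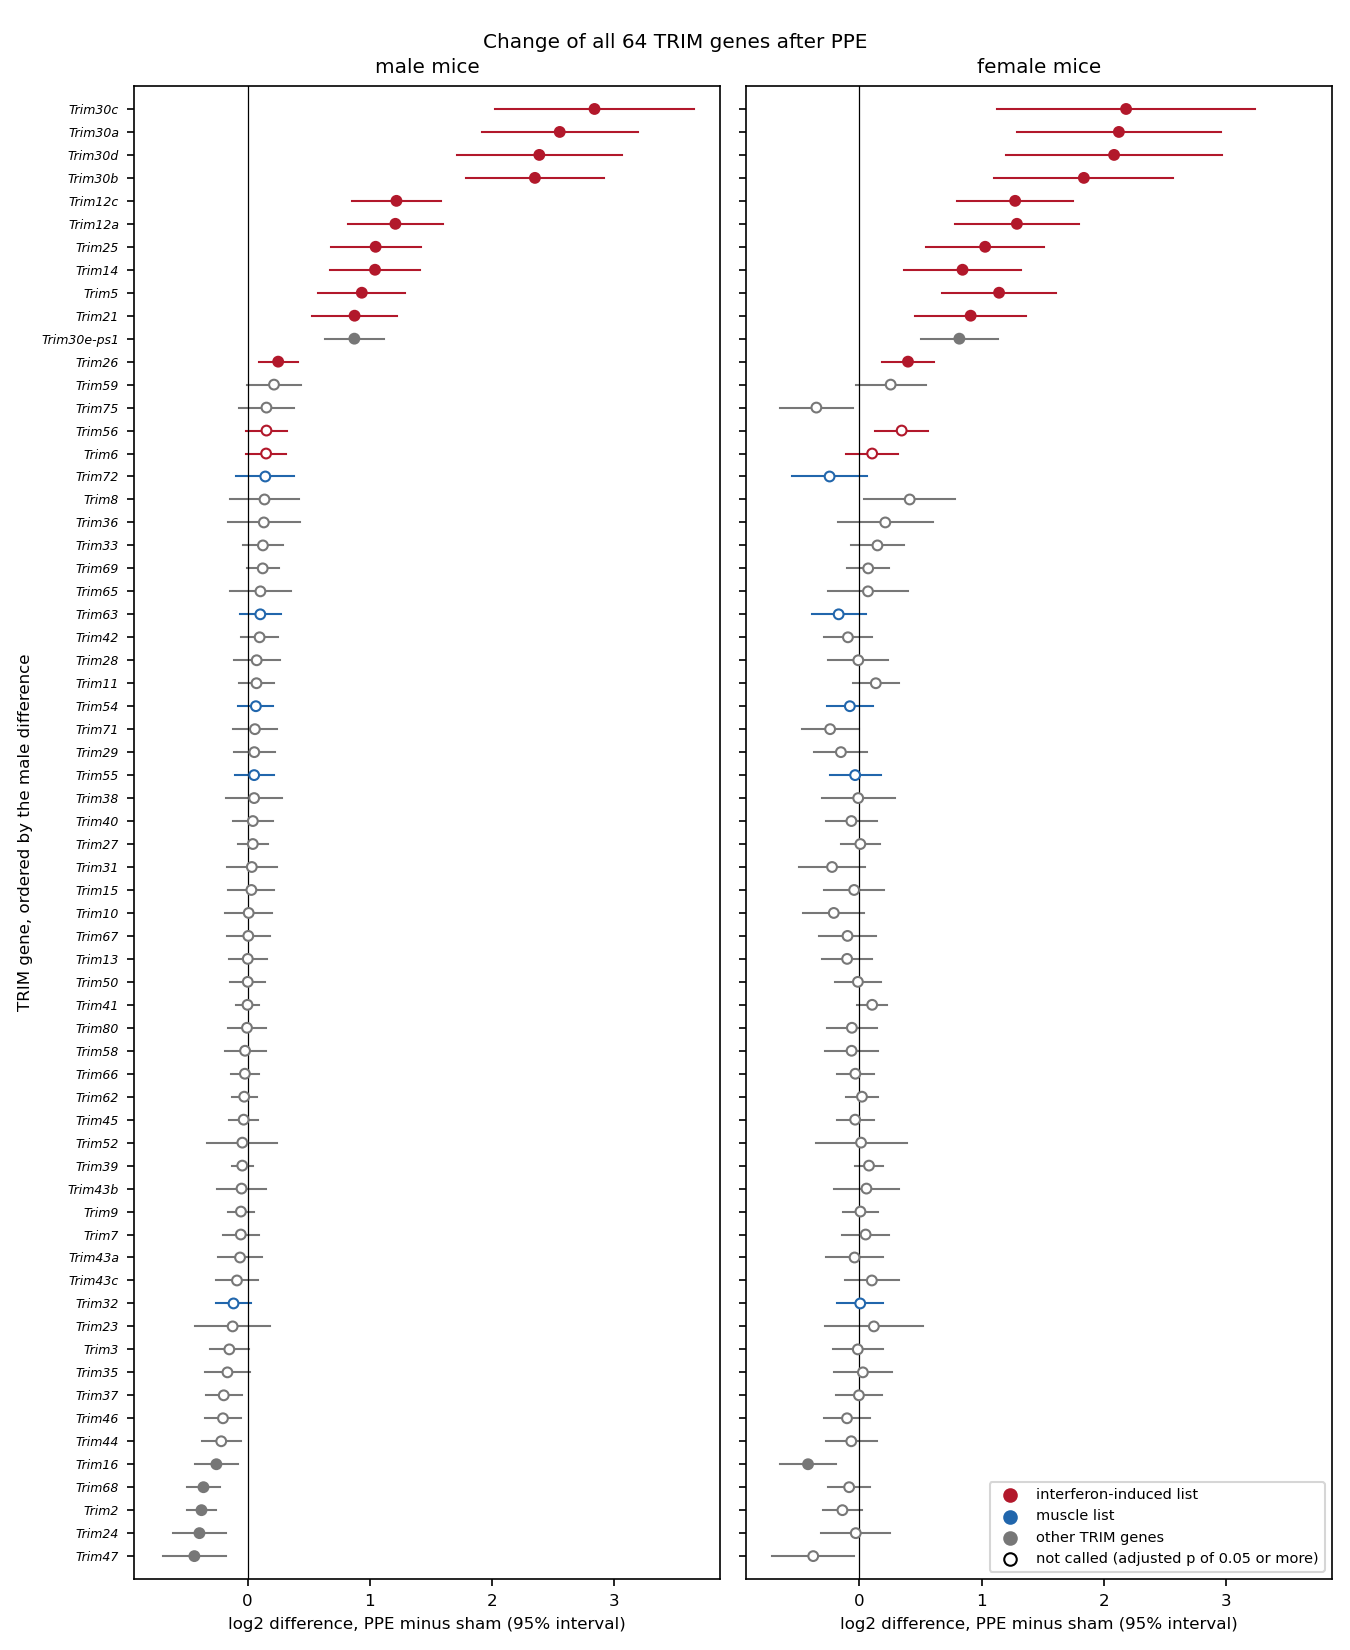
Each row is 1 of the 64 TRIM genes, ordered by its male difference. The x axis gives the log2 difference of PPE minus sham with its 95% interval, in male mice on the left and female mice on the right, on the same scale. Filled points were called. The 4 Trim30 genes with the largest differences lie at 2.35 to 2.84 in males. The 39 members that the text does not name lie between -0.22 and 0.22 in males and between -0.24 and 0.41 in females.

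The interferon-induced list held 15 genes, of which 13 were measured by a probe set of their own; Trim34a and Trim34b share one. Of the 13, 11 rose in male PPE mice and 11 rose in female PPE mice, the same genes, and 0 fell. The shares called higher over all genes were 9.67% in males and 2.77% in females. The median difference over the 13 was 1.05 in males and 1.14 in females. All 7 male PPE arrays lay above all 5 male sham arrays for 9 of the 13, an ordering that 4.69% of all genes showed. All 4 female PPE arrays lay above all 3 female sham arrays for 12 of the 13, an ordering that 11% of all genes showed. The 51 TRIM genes outside the list had median differences of 0.00 in males and -0.03 in females, with 1 higher and 5 lower in males and 1 higher and 1 lower in females. The list was drawn up with earlier results of these arrays known, so its direction is described here and not offered as independent evidence.

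Mouse chromosome 7 holds 15 of the 64 members, and 9 of the 12 risen genes are among those 15. A cluster 317 kb long, from Trim6 to Trim30e-ps1, holds 9 measured members, of which 8 rose in each sex. Over all genes, 9.67% were called higher in males and 2.77% in females. The Trim30 and Trim12 copies in the cluster may share probe signal, so the 8 may not be separate readings. The promoters of that cluster are shown because its members moved together. In RefSeq promoter windows of GRCm38.p6, from 250 bases before to 50 bases after each start, 49 of the 64 members had an entry. The core of the interferon-stimulated response element (ISRE), the site that interferon-activated STAT and IRF factors bind, was searched for on both strands as GAAA, any 2 bases and GAAA. It was present for 7 of 12 interferon-list genes with a window, or 58.3%, for 1 of 37 other members, or 2.7%, for 0 of 4 muscle members, and for 1079 of 27025 genes in the table, or 3.99%. Capitals mark the match, or a run of overlapping matches, in the 30-base stretches below, each read 5′ to 3′ on the strand of its gene.
Trim5, chr7:104288136-104288165, minus strand: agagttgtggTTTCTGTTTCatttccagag
Trim12a, chr7:104315466-104315495, minus strand: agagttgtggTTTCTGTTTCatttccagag
Trim12c, chr7:104353359-104353388, minus strand: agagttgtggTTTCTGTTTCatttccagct
Trim30a, chr7:104465210-104465239, minus strand: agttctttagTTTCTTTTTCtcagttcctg
Trim30d, chr7:104507871-104507900, minus strand: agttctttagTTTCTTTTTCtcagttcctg
Trim21, chr7:102565447-102565476, minus strand: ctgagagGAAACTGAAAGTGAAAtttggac
Trim26, chr17:36836979-36837008, plus strand: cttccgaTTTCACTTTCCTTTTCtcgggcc
The Trim5 and Trim12a stretches are the same, as are those of Trim30a and Trim30d. The match began 36 bases before the start in the Trim30a window shown, while a second Trim30a start has a window (chr7:104446076-104446375) whose match begins past the start. It began 49 bases before the start in Trim5, 41 before in Trim30d and 29 before in Trim12c, and it lay past the start in Trim12a and Trim21.

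Not every risen gene had the motif in its window. The windows of Trim25, Trim30b and Trim30c held no match, and neither did those of Trim6 and Trim56, which were not called. The risen genes Trim14 and Trim30e-ps1 had no window to search. Nor did every gene with the motif rise. The 1 match outside the interferon list lay in a window of Trim2, past 1 of its starts. Trim2 was called lower in males, with a difference of -0.38 (limma adjusted p = 0.000119), and was not called in females. The stretch in Trim30c closest to the Trim30a match, where capitals mark the aligned 10 bases, differs from it by 1 base, T3C, counted from 1 at the 5′ end of the capitals with the Trim30a base first.
Trim30c, chr7:104400896-104400925, minus strand: agttctgtggTTCCTTTTTCtcagttccac
The gamma-activated site core, searched for as TTCNNNGAA on both strands, was in the windows of 1 of 12 interferon-list genes, or 8.33%, and of 9.55% of all genes. The CArG box that serum response factor binds was found for 0 of 49 members, and the MEF2 site of striated muscle genes for 1 of 49, where 1.81% and 3.7% of all genes had them. Whole windows of 300 bases were aligned, and identity was counted over the aligned length, gaps included. The Trim12c window was 82.8% identical to that of Trim5 and 72.9% to that of Trim12a. The windows of Trim5 and Trim12a, whose marked stretches are the same, were 67.1% identical. Each window is set by its annotated start, and the match lies at a different distance from the start in each. Bases beyond the shared part lower these percentages, so they do not rank how alike the shared bases are. The window of the second Trim30a start (chr7:104446076-104446375) was 65.8% identical to that of Trim30d, where the match again lies at different distances from the start. For scale, the Trim21 window, from outside the cluster, was 46.9% to 51.0% identical to the other windows aligned. The Trim30a window whose stretch is shown was not aligned.

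Trim30a, Trim30b, Trim30c and Trim30d had the largest differences of the family in both sexes. Trim30a, known in mouse as a brake on Toll-like receptor signalling to NF-kappa B, lies at chr7:104409025-104465193. It had 12.02, 13.34 and 13.85 (lowest, median and highest) in male PPE aortas, against 10.16, 10.96, 10.59, 10.10 and 10.40 in male sham aortas. It had 13.77, 12.99, 14.09 and 12.90 in female PPE aortas, against 11.16, 11.25 and 11.53 in female sham aortas. No PPE array of either sex reached down to the sham arrays of that sex. The difference was 2.56 ± 0.30 (SE, 5.88-fold, limma adjusted p = 9.34e-06) in males and 2.12 ± 0.40 (4.36-fold, adjusted p = 0.0063) in females.

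Trim30c, at chr7:104379117-104400852, had 8.32, 9.97 and 10.70 (lowest, median and highest) in male PPE aortas, against 6.38, 7.24, 7.03, 6.92 and 6.68 in male sham aortas. Its female values were 9.81, 8.83, 10.17 and 8.47 in female PPE aortas, against 6.91, 7.46 and 7.04 in female sham aortas. Both sexes had groups apart, and the PPE arrays spread over more than 2 log2 units in males while the sham arrays spanned less than 1. Its difference was 2.84 ± 0.39 (7.16-fold, limma adjusted p = 3.49e-05) in males and 2.18 ± 0.50 (4.54-fold, adjusted p = 0.0184) in females. The female call was lost on leaving out female sham 1 (adjusted p = 0.0863), female sham 2 (0.0587), female sham 3 (0.067), female PPE 1 (0.0625) or female PPE 3 (0.0678), with differences of 1.90 to 2.35.

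Trim30d, at chr7:104470014-104507853, had 11.55, 12.83 and 13.27 in male PPE aortas (lowest, median and highest), against 9.66, 10.57, 10.18, 9.74 and 10.26 in male sham aortas. In females it had 13.02, 12.23, 13.50 and 12.19 with PPE, against 10.53, 10.59 and 10.83 with sham. The groups were apart in both sexes here too. The differences were 2.39 ± 0.32 (5.23-fold, limma adjusted p = 3.21e-05) and 2.08 ± 0.42 (4.24-fold, adjusted p = 0.009). The female call was lost by a small margin without female sham 2 (adjusted p = 0.0508). Trim30b, at chr7:104355398-104358646, stands next to Trim12c. It had 8.43, 9.14 and 9.63 (lowest, median and highest) in male PPE aortas, against 6.36, 6.87, 6.98, 6.46 and 6.67 in male sham aortas, and 9.32, 8.22, 9.71 and 8.26 in female PPE aortas, against 7.08, 6.95 and 7.09 in female sham aortas. The differences were 2.35 ± 0.27 (5.11-fold, adjusted p = 6.15e-06) and 1.84 ± 0.35 (3.57-fold, adjusted p = 0.0066). The Trim30 genes are close copies, and how far their probe sets share signal is not given in the sources used here, so the size of each single member is uncertain.

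At the end of the cluster, Trim30e-ps1 (chr7:104532959-104535361), annotated as a transcribed pseudogene and not on the interferon list, rose as well. It had 5.35, 5.88 and 6.03 (lowest, median and highest) in male PPE aortas, against 4.91, 4.87, 4.94, 5.03 and 4.91 in male sham aortas. Its female values were 6.69, 6.39, 6.71 and 6.15 in female PPE aortas, against 5.51, 5.72 and 5.77 in female sham aortas. PPE and sham arrays did not overlap in either sex, with differences of 0.87 ± 0.11 (1.83-fold, limma adjusted p = 2.29e-05) and 0.82 ± 0.15 (1.76-fold, adjusted p = 0.0053). The signal was dim: it exceeded the median of its array on 9 of 19 arrays. The uncertainty about shared probe signal holds for it too.

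Next to them stand Trim5, Trim12a and Trim12c, the mouse relatives of primate TRIM5, which is known from primates for binding the capsid of incoming retroviruses. Trim12c (chr7:104338754-104353358) had 11.03, 11.77 and 11.90 (lowest, median and highest) in male PPE aortas, against 10.36, 10.67, 10.56, 10.02 and 10.17 in male sham aortas, and 11.92, 11.34, 12 and 11.36 in female PPE aortas, against 10.29, 10.24 and 10.61 in female sham aortas. Its groups were apart, with differences of 1.22 ± 0.17 (2.33-fold, limma adjusted p = 5.48e-05) in males and 1.27 ± 0.23 (2.42-fold, adjusted p = 0.00496) in females. Trim12a (chr7:104299893-104315558) had 10.85, 11.41 and 11.84 (lowest, median and highest) in male PPE aortas, against 10.22, 10.49, 10.23, 10.07 and 9.97 in male sham aortas. In females it had 11.73, 11.42, 12.08 and 11.26 with PPE, against 10.23, 10.21 and 10.56 with sham. The groups were apart there as well, with differences of 1.21 ± 0.18 (2.31-fold, adjusted p = 0.000105) and 1.29 ± 0.24 (2.44-fold, adjusted p = 0.0062). Trim12a and Trim12c are close copies, and their probe sets could share signal.

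Trim5 (chr7:104263386-104288254) had 9.36, 10.01 and 10.39 (lowest, median and highest) in male PPE aortas, against 9.13, 9.36, 9.09, 8.83 and 8.66 in male sham aortas. Its female values were 10.83, 10.36, 10.78 and 10.23 in female PPE aortas, against 9.25, 9.38 and 9.59 in female sham aortas. The male groups met at 9.36, where the lowest PPE array equalled the highest sham array, and the female groups were apart. The differences were 0.93 ± 0.17 (1.91-fold, limma adjusted p = 0.000563) and 1.14 ± 0.22 (2.21-fold, adjusted p = 0.0075). Trim6 (chr7:104218795-104235152), which makes free ubiquitin chains in interferon signalling, is the one measured gene of the cluster that was not called. Its differences were 0.15 ± 0.08 (limma adjusted p = 0.208) and 0.10 ± 0.10 (adjusted p = 0.758), and its signal exceeded the array median on 2 arrays. Of the 9 measured cluster genes 8 rose in each sex, where 9.67% of all genes did in males and 2.77% in females. The median difference over the 9 was 1.22 in males and 1.29 in females.

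**Figure D2:**
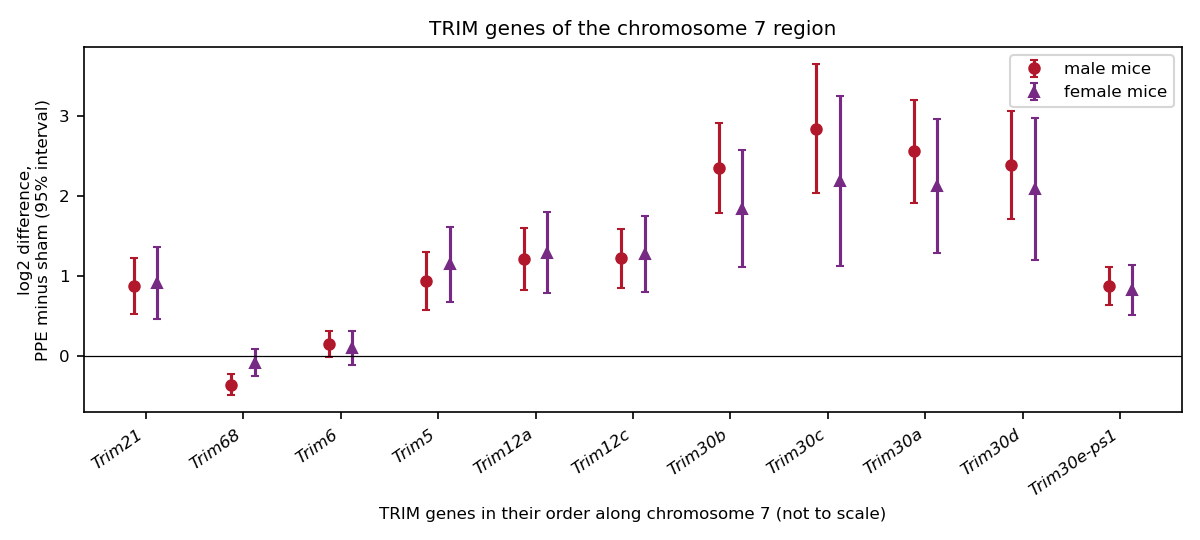
The x axis lists TRIM genes in their order along chromosome 7, not to scale, and the y axis gives the log2 difference of PPE minus sham with its 95% interval, for male mice (circles) and female mice (triangles). The Trim30 genes from Trim30b to Trim30d reach 2.35 to 2.84 in males, Trim5 and the Trim12 genes lie between 0.93 and 1.29 in both sexes, and Trim6 and Trim68 were not called higher.

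Interferon-induced members outside the cluster had differences of 0.15 to 1.05 in males. Trim25, the ligase that ubiquitinates the RNA sensor RIG-I and so permits its signalling, lies at chr11:88999403-89020294. It had 11.32, 11.76 and 12.35 (lowest, median and highest) in male PPE aortas, against 10.31, 11.14, 10.82, 10.70 and 10.67 in male sham aortas. In females it had 11.63, 11.65, 12.02 and 11.27 with PPE, against 10.78, 10.66 and 10.40 with sham. The groups did not overlap, and the differences were 1.05 ± 0.17 (2.07-fold, limma adjusted p = 0.000258) and 1.03 ± 0.23 (2.04-fold, adjusted p = 0.0149). The female call was lost without female sham 2 (adjusted p = 0.0619), female sham 3 (0.0765) or female PPE 3 (0.0565). Of 11 genes of RIG-I signalling read beside it, 9 rose in males and 7 in females, where 9.67% and 2.77% of all genes did. RIG-I itself (Ddx58) rose by 1.55 and 1.41, the related sensor MDA5 (Ifih1) by 2.02 and 1.74, and the regulator LGP2 (Dhx58) by 1.80 and 1.73 in males and females, while Rnf135, another ligase for RIG-I, rose by 0.18 in males (adjusted p = 0.0259) and differed by 0.11 in females (adjusted p = 0.559).

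Trim14, a scaffold at the mitochondrial adaptor MAVS that lacks a RING domain, lies at chr4:46505072-46536150. It had 7.81, 8.16 and 8.86 (lowest, median and highest) in male PPE aortas, against 7.07, 7.56, 7.21, 7.04 and 7.27 in male sham aortas. Its female values were 8.60, 8.62, 9.00 and 8.49 in female PPE aortas, against 7.77, 7.86 and 7.87 in female sham aortas. The groups were apart in both sexes, with differences of 1.04 ± 0.17 (2.06-fold, limma adjusted p = 0.000247) and 0.84 ± 0.23 (1.80-fold, adjusted p = 0.0416). The female call lay near the threshold and was lost without female sham 1 (adjusted p = 0.147), female sham 2 (0.13), female sham 3 (0.101), female PPE 1 (0.0827), female PPE 2 (0.0771), female PPE 3 (0.132) or male PPE 4 (0.0518), with differences of 0.74 to 0.87, and also after quantile normalization (0.0513) or with each array centred on its median (0.0748).

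Trim21, the cytosolic antibody receptor that sends antibody-coated particles to the proteasome, lies on chromosome 7 outside the cluster, at chr7:102557920-102565482. It had 8.20, 8.69 and 9.20 (lowest, median and highest) in male PPE aortas, against 7.46, 7.76, 7.69, 7.92 and 8.0 in male sham aortas. In females it had 9.17, 8.77, 9.45 and 8.60 with PPE, against 7.97, 8.07 and 8.22 with sham. Again no groups overlapped, with differences of 0.88 ± 0.17 (1.83-fold, limma adjusted p = 0.000803) and 0.91 ± 0.22 (1.88-fold, adjusted p = 0.0216). The female call was lost without female sham 1 (adjusted p = 0.10), female sham 2 (0.0895), female PPE 1 (0.0703) or female PPE 3 (0.0766). Its neighbour Trim68 (chr7:102677579-102687335), reported to restrain interferon production, moved the other way in males. Trim68 had 6.87, 7.08 and 7.19 (lowest, median and highest) in male PPE aortas, against 7.48, 7.58, 7.44, 7.38 and 7.30 in male sham aortas, a difference of -0.36 ± 0.06 (adjusted p = 0.000363) with no overlap. In females its difference was -0.08 (adjusted p = 0.759).

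Outside the cluster, Trim26 and Trim56 had the smallest differences of the list. Trim26 (chr17:36837123-36859398) had 8.36, 8.57 and 8.82 (lowest, median and highest) in male PPE aortas, against 8.24, 8.44, 8.26, 8.37 and 8.39 in male sham aortas, which overlapped. Its female values were 9.03, 9.02, 9.14 and 8.84 in female PPE aortas, against 8.62, 8.57 and 8.64 in female sham aortas, which did not. The differences were 0.25 ± 0.08 (1.19-fold, limma adjusted p = 0.0266) and 0.40 ± 0.10 (1.32-fold, adjusted p = 0.0295). The male call was lost without male sham 1 (adjusted p = 0.0761), male sham 3 (0.0596), male PPE 3 (0.0529) or male PPE 6 (0.0544), and the female call without any 1 of female sham 1 (0.0951), 2 (0.13) and 3 (0.0754) or female PPE 1 (0.0786), 2 (0.0683) and 3 (0.0975). Quantile normalization (0.0973) and median centring (0.0847) ended the female call too, and fitting the male arrays alone ended the male call (0.0662). Trim56 (chr5:137111286-137116462), a ligase that acts on the DNA-sensing adaptor STING, was not called. Its difference was 0.15 ± 0.08 in males (95% interval -0.01 to 0.32, adjusted p = 0.204) and 0.35 ± 0.10 in females (adjusted p = 0.0672), where all PPE arrays lay above all sham arrays and the gene was called with array weights (0.00703), without dim genes (0.049), or without male sham 4, male sham 5 and male PPE 1 (0.0464).

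**Figure D3:**
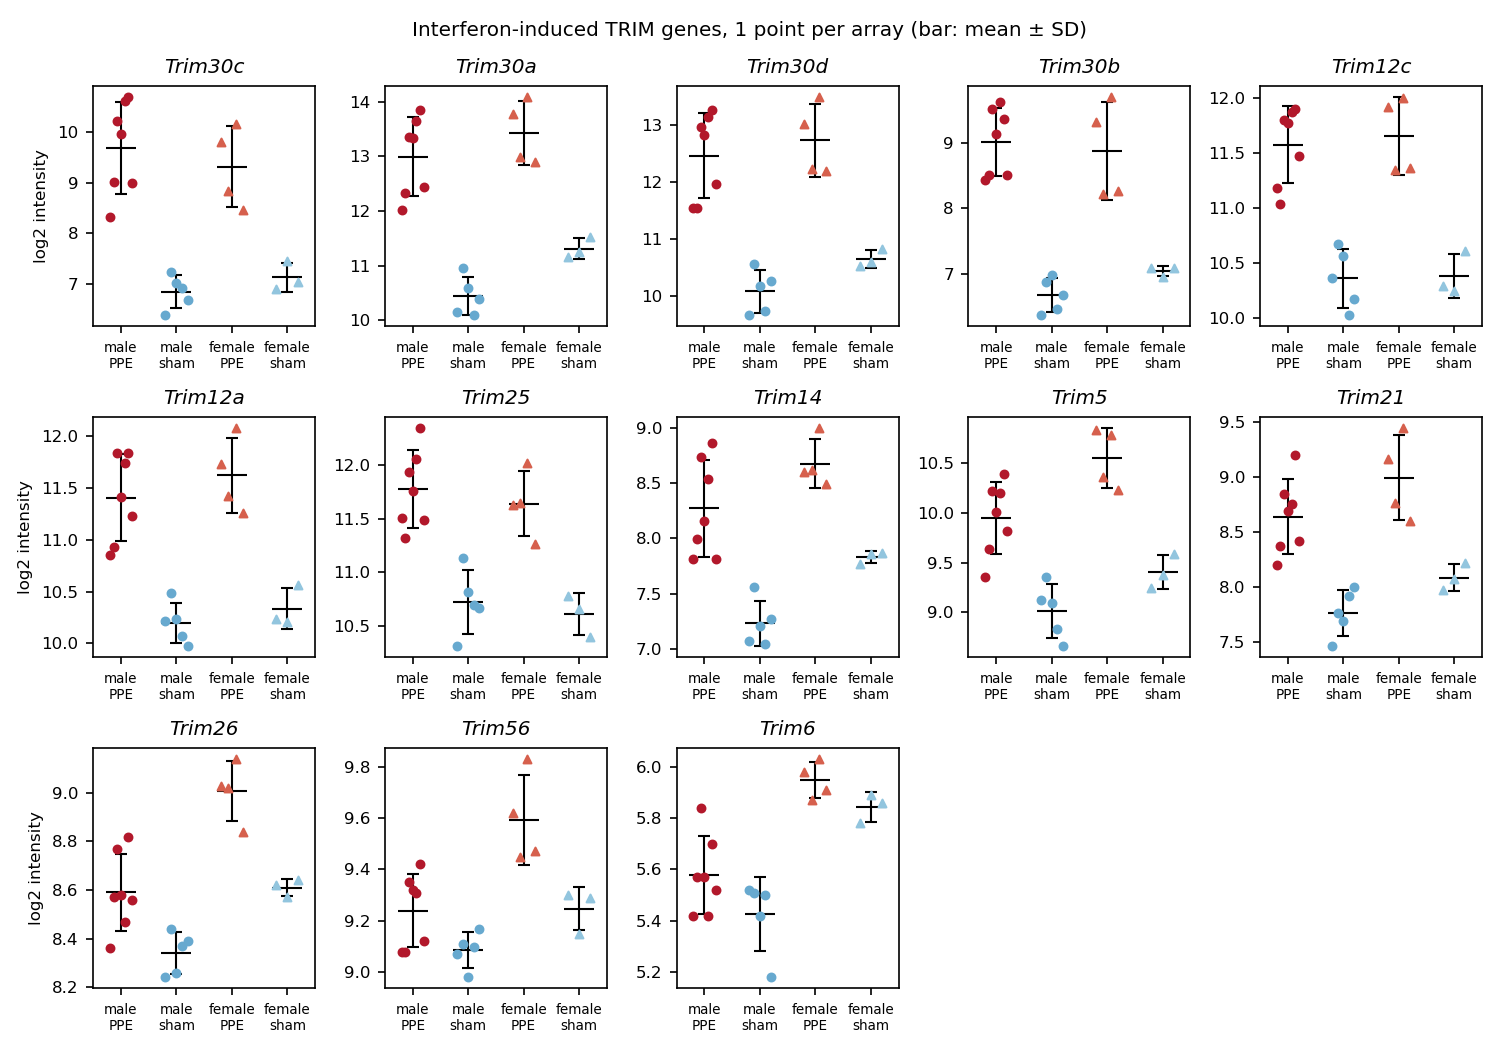
Each panel is 1 of the 13 interferon-induced TRIM genes, with the log2 intensity of every array as a point and the group mean ± SD as a bar, for male PPE (7 arrays), male sham (5), female PPE (4) and female sham (3). Each panel has its own y scale that does not start at 0. Trim30a spans 12.02 to 13.85 in male PPE arrays and 10.10 to 10.96 in male sham arrays.

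The same arrays were high or low across the risen genes. Over the 11 risen list members, male PPE 6 was the highest array of its group for 9 and male PPE 1 the lowest for 9. Female PPE 3 was the highest of its group for 10 and female PPE 4 the lowest for 9. Male sham 2 was the highest of its group for 9 and female sham 3 of its group for 9. The list mean of 12 interferon-stimulated genes was read on the same arrays. It was 12.08 on male PPE 6 and 10.28 on male PPE 1, against 8.42 to 9.56 on male sham arrays, and 12.07 on female PPE 3 and 10.48 on female PPE 4, against 9.12 to 9.49 on female sham arrays. All 12 rose in males (9.67% of all genes did), with a median difference of 2.16. In females 7 of the 12 rose (2.77% of all genes did), with a median of 2.00. Some, Irf7 among them, are also on the RIG-I list. Stat2, a signal carrier of the interferon receptor, rose by 2.00 and 1.86, and Irf7, which amplifies interferon production, by 3.10 and 2.82 in males and females. Irf1 rose by 1.84 and 1.06, and Irf9 rose by 1.02 in males with 0.77 in females (adjusted p = 0.0515).

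Several marker lists of other cells also differed between PPE and sham. Over all genes, 9.67% were called higher and 9.98% lower in males, and 2.77% higher and 1.45% lower in females. Of 8 macrophage and monocyte markers 7 rose in male PPE mice, with list means of 14.34 to 15.28 on male PPE arrays and 12.16 to 13.98 on male sham arrays. Of the same 8, 0 were called in females by limma (2 had an unadjusted p below 0.05), with list means of 14.25 to 14.92 on PPE arrays and 13.72 to 14 on sham arrays. The T and NK cell markers, 7 measured, were called higher in both sexes, 7 of 7, with list means of 8.18 to 9.09 on male PPE arrays against 6.59 to 6.73 on male sham arrays, and 9.04 to 9.70 on female PPE arrays against 7.66 to 8.07 on female sham arrays. All 8 smooth muscle markers fell in males and 6 of 8 in females, with list means of 10.79 to 11.94 on male PPE arrays against 12.57 to 13.62 on male sham arrays, and 11.62 to 12.28 on female PPE arrays against 13.02 to 13.32 on female sham arrays. Of 5 cardiac, 7 adipocyte and 2 red blood cell markers measured, 0 were called in either sex by limma (in males 1 adipocyte and 1 red blood cell marker had an unadjusted p below 0.05, in females 0). One array stood apart in the adipocyte list mean: male sham 4 had 12.84, where the male PPE arrays had 8.68 to 9.71 and the other male sham arrays 7.91 to 8.95. The female adipocyte means were 9.40 to 11.67 on PPE arrays and 11.05 to 12.05 on sham arrays. Without male sham 4, 11 interferon-list genes were called higher in males, and 11 also without male sham 4, male sham 5 and male PPE 1 together, the 3 male arrays with the highest medians (5.83, 5.78 and 5.85). The part of these shifts in the TRIM results was not tested.

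The muscle TRIM genes gave no call. Of the 5, 0 were called in either sex by limma (0 had an unadjusted p below 0.05), where 19.6% of all genes were called in males and 4.22% in females, and the lowest adjusted p was 0.29 in males and 0.513 in females. The median difference was 0.07 in males and -0.08 in females. Trim63, which encodes MuRF1 (chr4:134315120-134329629), averaged 5.56 ± 0.15 with PPE and 5.45 ± 0.17 with sham in males (SD), and 6.03 ± 0.07 with PPE and 6.20 ± 0.05 with sham in females. Its difference was 0.10 (95% interval -0.07 to 0.27, adjusted p = 0.447) in males and -0.17 (-0.39 to 0.05, adjusted p = 0.529) in females, where all PPE arrays lay below all sham arrays. Trim55, which encodes MuRF2 (chr3:19644344-19692584), differed by 0.05 (-0.11 to 0.21) and -0.04 (-0.24 to 0.17). Trim54, which encodes MuRF3 (chr5:31116612-31137626), differed by 0.07 (-0.08 to 0.21) and -0.08 (-0.26 to 0.11). These genes were dim in the aorta: Trim54 and Trim55 exceeded the array median on 0 of 19 arrays and Trim63 on 2, so these are values of low signals.

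**Figure D4:**
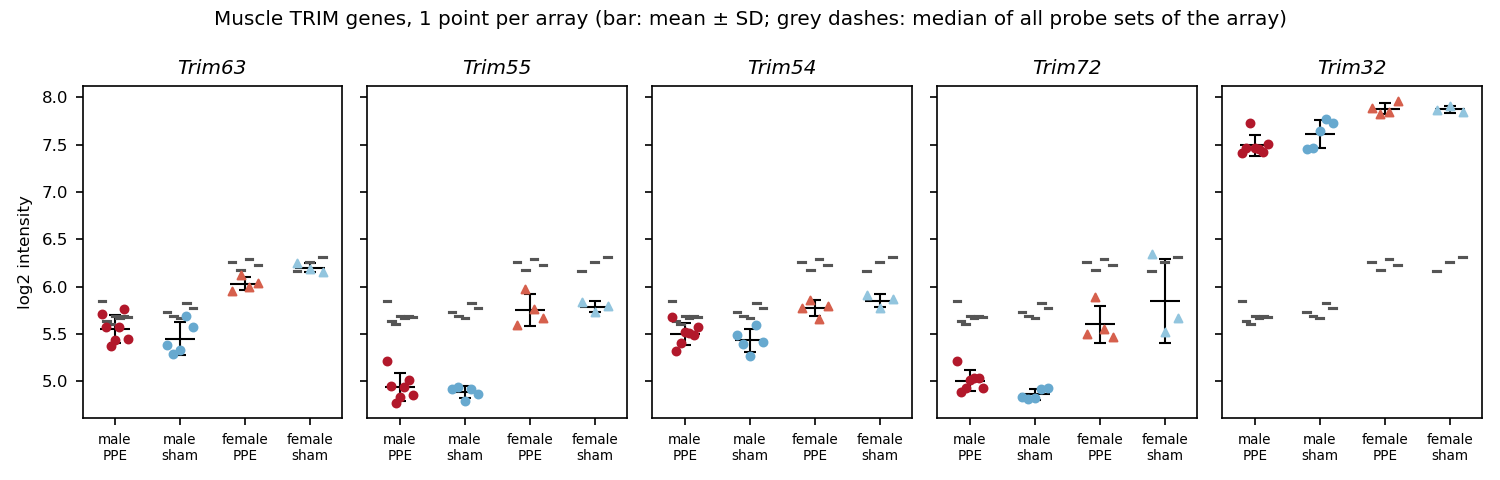
Each panel is 1 of the 5 muscle TRIM genes, with the log2 intensity of each array as a point, the group mean ± SD as a bar and the median of all probe sets of that array as a grey dash. The y axis is shared and does not start at 0. Trim32 lies above the dash on all 19 arrays, and Trim54 and Trim55 lie below it on all 19.

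Trim32, a ligase mutated in a human limb-girdle muscular dystrophy and active outside muscle too, was the only 1 of the 5 above the median of all 19 arrays (chr4:65604986-65616240). It averaged 7.49 ± 0.11 with PPE and 7.61 ± 0.15 with sham in males, and 7.88 ± 0.06 with PPE and 7.87 ± 0.04 with sham in females. The differences, -0.12 (95% interval -0.26 to 0.03, limma adjusted p = 0.29) and 0.01 (-0.18 to 0.19, adjusted p = 0.987), were within the spread between arrays. Trim72, which encodes MG53, a protein that patches torn muscle membranes, is at chr7:128003462-128011393. It had 4.89, 5.01 and 5.22 (lowest, median and highest) in male PPE aortas, against 4.84, 4.81, 4.82, 4.92 and 4.93 in male sham aortas, and 5.50, 5.89, 5.55 and 5.47 in female PPE aortas, against 6.35, 5.52 and 5.67 in female sham aortas. The groups overlapped in both sexes, with differences of 0.14 (-0.09 to 0.38, adjusted p = 0.453) and -0.24 (-0.55 to 0.07, adjusted p = 0.513). Female sham 1 set the female Trim72 value, which was 0.01 without it. That array had a mean of 10.02 over 14 skeletal muscle markers, against 6.14 and 6.20 on the other female sham arrays. Female PPE 2 had 8.95, against 6.01 to 6.09 on the other female PPE arrays, and male PPE 6 had 7.05, against 5.41 to 5.80 on the other male PPE arrays. Female sham 1 and female PPE 2 were also the highest Trim72 arrays of their groups. For Trim63 all 3 were: 5.77 on male PPE 6, 6.12 on female PPE 2 and 6.25 on female sham 1. None of the 14 skeletal markers was called in either sex (0 in males and 1 in females had an unadjusted p below 0.05). The part of skeletal muscle RNA in the Trim72 and Trim63 readings was not tested, and without the 3 arrays the Trim63 differences were 0.07 in males and -0.18 in females.

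**Figure D5:**
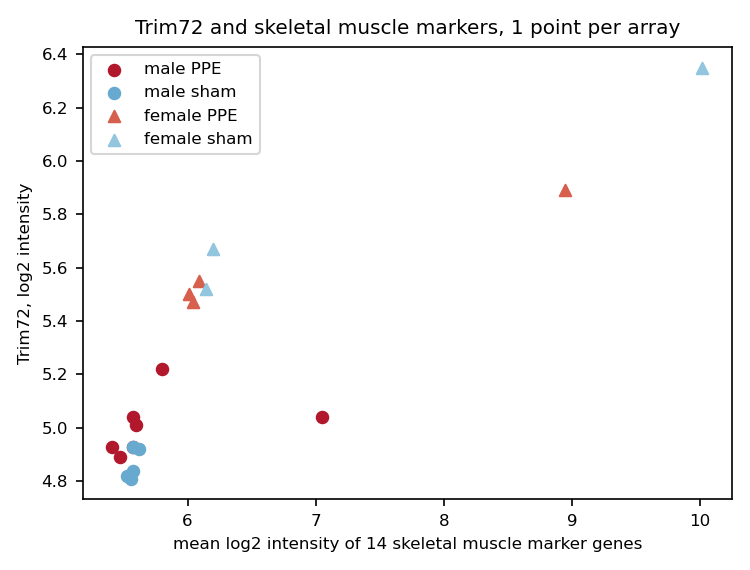
Each point is 1 array, with the mean log2 intensity of 14 skeletal muscle marker genes on the x axis and the log2 intensity of Trim72 on the y axis. Neither axis starts at 0. Female sham 1 (10.02 and 6.35) and female PPE 2 (8.95 and 5.89) stand apart at the right.

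Since those 3 arrays stood apart, the counts were read again without them, a choice made after the data were seen. In males 15 of 64 TRIM genes were then called, with 10 interferon-list members higher. In females, with 3 PPE and 2 sham arrays left, 3 were called, Trim12c, Trim30a and Trim30b (limma adjusted p = 0.0423, 0.0435 and 0.0376), where 217 of all genes were called. The female differences without the 3 arrays were 1.33 for Trim12c, 2.20 for Trim30a, 2.08 for Trim30b, 1.30 for Trim12a and 1.13 for Trim5, beside 1.27, 2.12, 1.84, 1.29 and 1.14 with all arrays. The muscle genes again gave 0 calls in both sexes, and the female Trim72 difference was -0.09.

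Some genes placed around the muscle TRIMs were called. Over all genes, 9.98% were called lower in males and 1.45% in females. Of 8 genes of the muscle atrophy programme, 4 fell in male PPE mice and 0 were called in female PPE mice by limma (2 had an unadjusted p below 0.05). Fbxo32, which encodes atrogin-1, the ligase that rises with MuRF1 in wasting muscle, fell by 1.14 in males (adjusted p = 0.000135) and had a difference of -0.56 in females (adjusted p = 0.233). Foxo1, a transcription factor of that programme, fell by 0.58 in males and had a difference of -0.14 in females. Of 7 genes of membrane repair, 3 fell in males and 2 in females. The caveolar genes Cav1 and Cavin1 fell by 0.76 and 0.80 in males and by 0.80 and 0.64 in females, and Dysf, which encodes dysferlin, fell by 0.60 in males with -0.28 in females (adjusted p = 0.20). Smooth muscle markers fell on the same arrays, as given above, and their part in these values was not tested.

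The other called members fell, and by little. Trim16, a RING-less protein that acts on damaged inner membranes, was the only member lower in both sexes (chr11:62820198-62842948). It had 7.01, 7.43 and 7.44 (lowest, median and highest) in male PPE aortas, against 7.44, 7.70, 7.85, 7.49 and 7.65 in male sham aortas, and 7.97, 7.85, 7.86 and 7.81 in female PPE aortas, against 8.42, 8.26 and 8.20 in female sham aortas. The male groups touched at 7.44 and the female groups were apart, with differences of -0.26 ± 0.08 (limma adjusted p = 0.0401) and -0.42 ± 0.11 (adjusted p = 0.0374). Both calls sat near the threshold. The male call was lost without female sham 2 (adjusted p = 0.0501), male sham 2 (0.0905), male sham 3 (0.113), male sham 5 (0.0766) or male PPE 6 (0.0538). The female call was lost on leaving out any 1 of the 7 female arrays (adjusted p of 0.058 to 0.184), and with each array centred on its median neither call held (0.225 in males and 0.169 in females). Quantile normalization (0.173) and a fit of the male arrays alone (0.0995) also ended the male call.

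Trim2, Trim24 and Trim47, like Trim68, fell in males and were not called in females. Trim2, a ligase that protects axons through neurofilament turnover (chr3:84160439-84308352), had 6.79, 6.92 and 6.97 (lowest, median and highest) in male PPE aortas, against 7.38, 7.36, 7.25, 7.17 and 7.18 in male sham aortas. The groups were apart, with a difference of -0.38 ± 0.06 (limma adjusted p = 0.000119), and the female difference was -0.14 (adjusted p = 0.445). Trim24, a chromatin reader and nuclear receptor partner (chr6:37870811-37968445), differed by -0.39 ± 0.10 in males (adjusted p = 0.0102) and by -0.03 in females (adjusted p = 0.963). Trim47 (chr11:116105750-116110235) differed by -0.44 ± 0.12 in males (adjusted p = 0.016) and by -0.38 ± 0.16 in females (adjusted p = 0.253), and its PPE arrays lay below all sham arrays in both. Without male sham 5, the female Trim47 value was called as well (adjusted p = 0.037), as it was with array weights (0.0214) and without male sham 4, male sham 5 and male PPE 1 (0.0295). The male call was lost with median centring (0.0502), with the male arrays fitted alone (0.0511), or without male sham 4, male sham 5 and male PPE 1 (0.0502). All male PPE arrays lay below all male sham arrays for 3 of the 64 members (Trim2, Trim47 and Trim68), an ordering that 4.68% of all genes showed, and all female PPE arrays lay below all female sham arrays for 4, where 8.86% of all genes did. The remaining 39 members, not named by the rule, lay between -0.22 and 0.22 in males and between -0.24 and 0.41 in females. By role, 1 of 4 chromatin members fell in males (Trim24), 1 of 4 with NHL repeats (Trim2) and 1 of 10 innate signalling members outside the interferon list (Trim68), where 9.98% of all genes fell, and each of these counts is 1 gene. Of 7 microtubule-binding, 2 transmembrane and 2 erythroid members, 0 were called in either sex.

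With all arrays weighted equally, no member's response to PPE was called as differing between male and female mice. The test of that difference (male minus female) called 0 of 64 by limma, where 0.541% of all genes were called, 0.0398% higher and 0.501% lower in males than in females. An unadjusted limma p below 0.05 was found for 5 of the 64 members and for 2997 of all 30141 genes. The lowest was Trim75, with 0.15 in males and -0.35 in females and a difference of 0.51 (95% interval 0.13 to 0.88, adjusted p = 0.28). Its signal was below the median on every array. Trim68 differed by -0.28 (adjusted p = 0.325) and Trim2 by -0.24 (-0.44 to -0.04, adjusted p = 0.385). With array weights, Trim2 was called, at -0.31 (adjusted p = 0.0385). For the largest risers the intervals were wide: Trim30c differed by 0.66 (-0.68 to 1.99) and Trim30a by 0.43 (-0.62 to 1.48), so sizeable differences between the sexes could have been missed. The calls in males only of Trim24, Trim47 and Trim68 are therefore not shown to be specific to males, and that of Trim2 depends on the weighting.

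Proteins of the family whose genes carry other names were read beside the members. Mefv, which encodes pyrin, an inflammasome sensor, rose by 2.22 in males (limma adjusted p = 1.49e-06) and by 1.58 in females (adjusted p = 0.00427). Pml, which builds interferon-responsive nuclear bodies, rose by 0.72 in males (adjusted p = 0.0122) and differed by 0.69 in females (adjusted p = 0.156). Mid2, a microtubule-associated ligase, fell by 0.72 in males and by 0.44 in females, while its relative Mid1 was not called, with differences of -0.18 and 0.28.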

How the data were processed

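Labelled RNA (100 ng per mouse) was hybridised to Affymetrix Clariom D (MTA 1.0) arrays, 1 mouse per array. The deposited values are log2 intensities; the submitters' processing notes name the Transcriptome Analysis Console and mm10. How probes were summarised and background was removed, and with which software version, is not stated there. Of 65956 deposited probe sets, 30604 carried 1 gene symbol, 2146 several and 33206 none in the platform annotation. Symbols were updated for 813 and placed through RefSeq (GRCm38.p6), leaving 30141 genes. Titles gave each array its sex and treatment. A model of 4 group means over the 19 arrays was fitted in limma 3.58.1 (lmFit, eBayes) under R 4.3.3; promoter windows were aligned with biopython 1.88. Genes were called at an adjusted p below 0.05. A list is described by its counts and median, with no set test. Members and lists were chosen with earlier results of these data known. The text names every member of the interferon and muscle lists, every other member called in either sex and the 3 members with the lowest p for the difference between the sexes; of each other list, genes among its first 4 measured. No pair of arrays shared more than 2.50% of its values. Same-numbered PPE and sham arrays did not deviate together (r of -0.321 to 0.195 over 5 male pairs and -0.227 to 0.24 over 3 female pairs), so no block was used. The fit was tested on simulated data over the 30141 genes with 200 changed. Noise was drawn independently for each gene and array, with no shift shared across an array. Of genes changed by 1 log2 unit the fit recovered 91% in the male and 80.6% in the female comparison. Of those changed by 0.5 it recovered 59.7% and 35.8%. It also called 17 unchanged genes in the male and 9 in the female comparison. The real arrays had shared shifts and many more called genes, so these rates need not hold for them. The number of arrays limits the precision.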

Additional observations from a re-analysis of the deposited data

Results flagged for a closer look

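In 4 of 75 combinations of a named gene and a group of 4 to 7 arrays, 1 array lay far from the rest of its group; chance alone gives about 5% such cases. Trim16 had 7.01 on male PPE 1, against 7.41 to 7.44 on the other 6 male PPE arrays. Trim24 had 10.24 on male PPE 7, against 9.63 to 9.84 on the others. Trim32 had 7.73 on male PPE 3, against 7.41 to 7.51 on the others. Trim47 had 8.63 on male sham 5, against 7.79 to 7.93 on the other 4 male sham arrays.

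The probe set that names both Trim34b and Trim34a, interferon-induced genes inside the chromosome 7 cluster, was outside the comparisons because it names 2 genes. It averaged 10.82 ± 0.50 with PPE and 9.33 ± 0.19 with sham in males (SD), a log2 difference of 1.49 (2.82-fold, limma adjusted p = 6.31e-05). In females it averaged 11.56 ± 0.47 with PPE and 10.13 ± 0.14 with sham, a difference of 1.42 (2.68-fold, adjusted p = 0.00815). Which of the 2 genes gave the signal cannot be told apart.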

How the results depend on the processing

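Of 1488 comparisons of a named gene's value with an alternative (30 settings), 1410 kept their side of the threshold, 72 lost the call, 6 gained it and 0 reversed a called value. Among the 1410, 10 turned sign at 2 decimals, all in female values called under neither fit (Trim24, Trim32, Trim55 and Trim72). Called TRIM genes numbered 17 in males, 15 to 19 with 1 array left out and 14 to 20 otherwise; in females 13, 6 to 14 with 1 array left out and 3 to 18 otherwise. Interferon-list genes called higher numbered 11 in males, 10 to 11 with 1 array left out and 10 to 12 otherwise; in females 11, 5 to 11 with 1 array left out and 3 to 12 otherwise. Both female minima of 3 came from leaving out female sham 1, female PPE 2 and male PPE 6, chosen after seeing the data. Muscle genes called lower stayed at 0 throughout, and calls of a difference between the sexes were 0 with any 1 array left out. With array weights 1 member, Trim2 (-0.31, adjusted p = 0.0385), differed between male and female mice; the cause was not tested. With replicate number as a replicate block, which the labels do not tie to a shared origin, 14 TRIM genes were called in males and 10 in females, with 10 and 9 of the interferon list higher and 0 differing between the sexes.

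Over all genes, 1273 female calls (835 higher, 438 lower) compared with 3951 under array weights, 1970 with only the groups compared, 639 with the block, 2454 without male sham 4, male sham 5 and male PPE 1, 217 without the 3 arrays high in skeletal markers and 368 to 1613 with 1 array left out, and quantile normalization gave 673 higher and 852 lower. The 5922 male calls (2915 higher, 3007 lower) compared with 3535 with the block, and median centring gave 3390 higher and 2229 lower. Calls of a difference between the sexes, 163 (12 higher, 151 lower), compared with 931 under array weights, 274 with median centring, 260 without dim genes, 79 without male sham 4, male sham 5 and male PPE 1, 0 with the block, 0 without the 3 arrays and 0 to 426 with 1 array left out; quantile normalization gave 68 higher and 155 lower. Few female arrays and low signal limited what could be seen: 21 of 64 members exceeded the array median on no array.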
